A study of Drosophila melanogaster with 14 samples.

Results

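Appl is the fly homolog of the amyloid precursor protein gene APP. It is described here with the genes for its secretases (kuz, Bace, Psn, nct, aph-1 and pen-2), 2 adaptors (X11L and X11Lbeta) and the microtubule-binding protein tau. These 10 genes were chosen by name for their known roles, with earlier results of these data already known. They were found by FlyBase identifier among the 15490 genes of the 3 expression tables of the series. All 10 are in all 3 tables. Poly(A) RNA of Drosophila melanogaster was sequenced in 14 libraries, 2 in each of 7 groups, each from about 50 flies labelled as adult males of 5 to 7 days. In the first table, flies with a neuronal Gal4 driver and a UAS-APP transgene (Elav-Gal4;UAS-APP;+, called elav-Gal4 UAS-APP) stand beside the driver alone (Elav-Gal4;+;+, called elav-Gal4) and the transgene without a driver (w;UAS-APP;+, called UAS-APP). In the second, flies with an allele of the potassium channel gene Shal (w;+;Shal495) stand beside w1118. In the third, flies with the driver and a transgene for the heat-gated cation channel TrpA1 (Elav-Gal4;+;UAS-TrpA1, called elav-Gal4 UAS-TrpA1) stand beside the transgene without a driver (w;+;UAS-TrpA1, called UAS-TrpA1). The third table has no library of the driver alone, and the labels name no heating step. The genotype label of 1 Shal495 library reads Shal496, while its title reads Shal495. The labels call the transgene APP without its species, and its own transcripts were not analysed here. Elav-Gal4 drives expression in neurons, and elav-Gal4 UAS-APP, elav-Gal4 and elav-Gal4 UAS-TrpA1 flies all carry it.

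Appl protein spans the membrane and is made mainly in neurons. An α-secretase such as the kuz product, or a β-secretase, first sheds its outer part, and the γ-secretase complex of Psn, nct, aph-1 and pen-2 then cuts the stub within the membrane. Adaptors of the X11 (Mint) family bind the tail of the precursor inside the cell. Tau binds microtubules in axons and is the protein of the tangles of human Alzheimer's disease.

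Values are FPKM (fragments scaled to exon length and library size). The tables were deposited separately, and tests stay inside 1 table. A library held 17162942 to 19911318 fragments. The labels do not state whether paired libraries come from separate crosses or cultures. A p-value here therefore sets a group difference only against the spread of these libraries. That spread is pooled over all groups of a table and moderated across genes, so it is not that of any 1 group. Within groups the spread was 2.15 to 4.84 times sampling noise in 4 groups and 24.75 to 28.46 times in UAS-APP, w1118 and Shal495. Shal had 18.3 and 20.0 FPKM in Shal495 libraries and 27.7 and 27.1 FPKM in w1118 libraries. TrpA1 had 2.76 and 2.62 FPKM in elav-Gal4 UAS-TrpA1 libraries and 1.48 FPKM in both UAS-TrpA1 libraries. The yolk protein gene Yp1, a marker of females, was at 28.2 to 63.7 FPKM in the libraries labelled elav-Gal4, Shal495 and UAS-TrpA1, and at or below 0.426 FPKM in the others, although all carry the label male. The labels name brains and the series text names heads. Markers of photoreceptors, which lie outside the central brain, summed to 31100 FPKM in elav-Gal4 UAS-APP, 3000 to 3060 FPKM in elav-Gal4, 22100 to 26700 FPKM in UAS-APP, and 24400 FPKM or more in every library of the other tables. Markers of the gut summed to 813 to 817 FPKM in elav-Gal4 UAS-APP, 56400 to 57300 FPKM in elav-Gal4 and 23900 to 26000 FPKM in UAS-APP. Markers of neurons ran the other way there, with sums of 1210 to 1230 FPKM in elav-Gal4 UAS-APP, 89.5 to 90.3 FPKM in elav-Gal4 and 303 to 412 FPKM in UAS-APP.

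**Figure D1:**
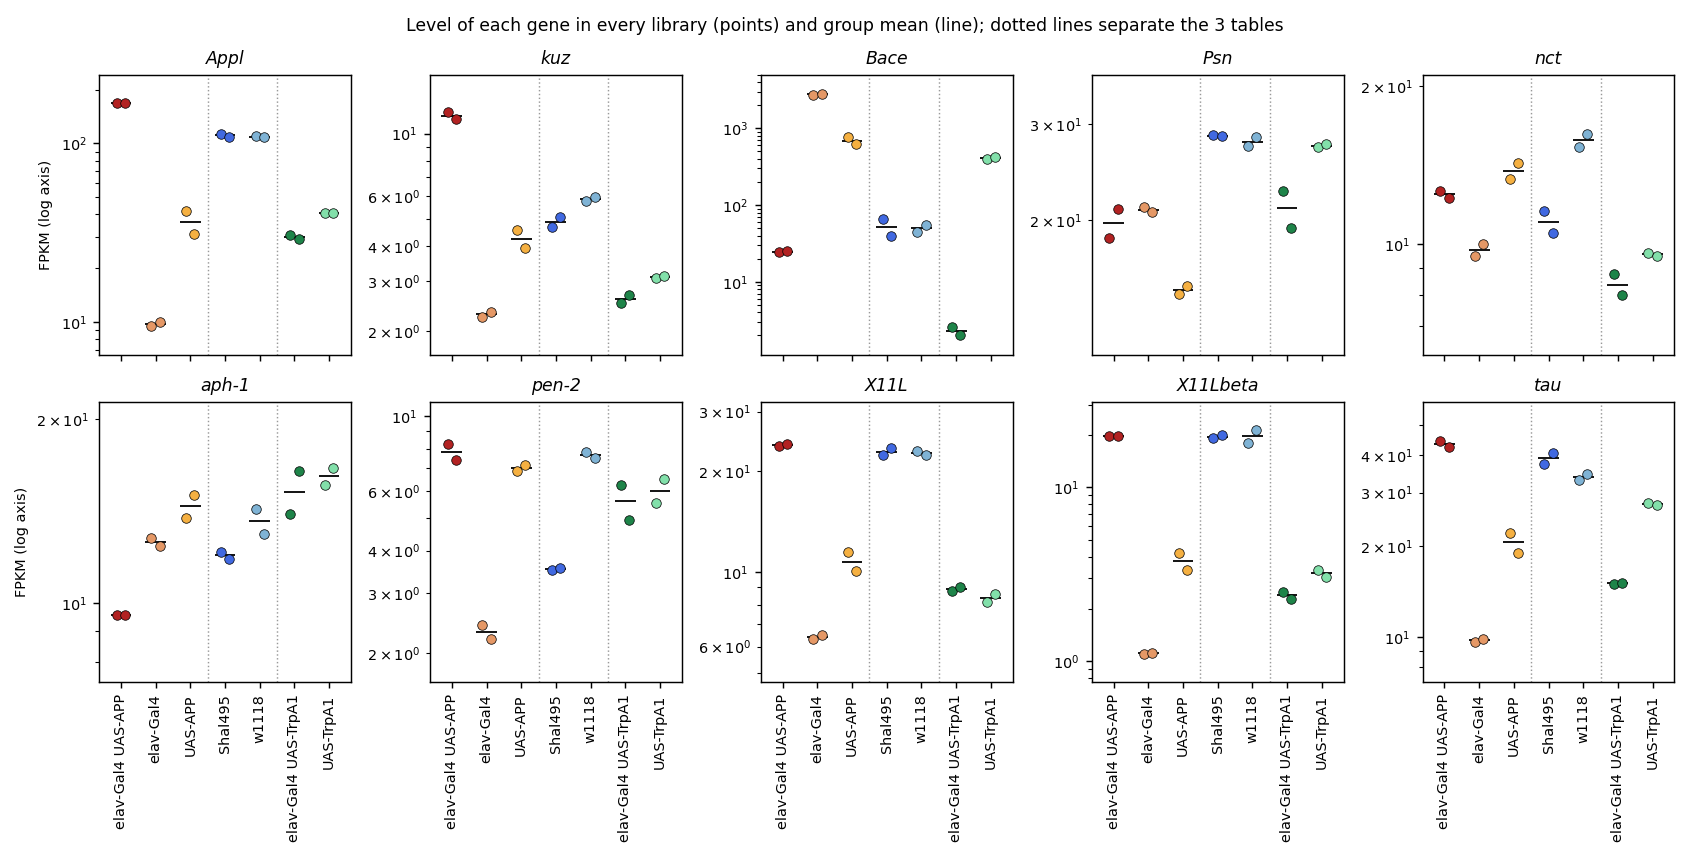
Level of each gene in every library in FPKM (log axis, a separate scale for each gene), with points for the 2 libraries of a group, a line at their mean and dotted lines between tables. Appl averaged 168 FPKM in elav-Gal4 UAS-APP and 9.74 FPKM in elav-Gal4, and Bace averaged 2.29 FPKM in elav-Gal4 UAS-TrpA1 and 407 FPKM in UAS-TrpA1.

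Against the driver alone, elav-Gal4 UAS-APP flies had more RNA of Appl, both adaptors, tau, kuz and pen-2, and far less of Bace. Of the 10 genes, 7 were higher and 2 lower at an adjusted p under 0.05 (limma on log2(FPKM + 1), Benjamini-Hochberg over 9866 genes). In this comparison 84.0% of all tested genes were called, 56.5% as higher and 27.5% as lower. The median log2 change was 1.58 over the 10 genes and 0.43 over all tested genes. Against UAS-APP, 6 of the 10 genes were higher and 2 lower, where 76.7% of all genes were called, 46.1% as higher and 30.7% as lower. There the median was 0.72 over the 10 genes and 0.17 over all genes. The control lines differed among themselves as well, with 2 of the 10 genes higher and 7 lower in elav-Gal4 than in UAS-APP, where 66.3% of all genes were called, 16.2% as higher and 50.2% as lower. That median was -0.67 over the 10 genes and -0.27 over all genes. These 3 comparisons use the same 6 libraries and are not independent of each other.

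Shal495 flies differed from w1118 in 1 of the 10 genes, pen-2, which was lower. Over all 9628 genes tested 2.37% were called, 1.16% as higher and 1.2% as lower, and the median of all was -0.07. None of the 10 genes was higher by limma at an adjusted or unadjusted p under 0.05. The count was 0 by voom too, which gave no value for tau. In elav-Gal4 UAS-TrpA1 flies 5 of the 10 genes (Appl, Bace, Psn, X11Lbeta and tau) were lower than in UAS-TrpA1 and 0 were higher, by limma. At an unadjusted p under 0.05 still 0 were higher, as with voom on recovered fragments, again without tau. However, X11L was called higher under median centring and quantile normalization (0.26 with each). There 60.6% of 8980 genes were called, 16.6% as higher and 43.9% as lower. Under both of those scalings Psn (-0.18 and -0.20) and X11Lbeta (-0.12 and -0.10) were not called, which left 3 lower and 1 higher. The calls over all genes were then 2586 higher and 2042 lower under median centring, and 2325 higher and 2169 lower under quantile normalization. The median of that comparison was -0.25 over the 10 genes and -0.16 over all genes. Every one of the 10 genes had at least 1.10 FPKM in every library, so none entered a test through 1 group alone. Below, each log2 change is given as fitted and, where the median of all genes lay more than 0.1 from 0, also less that median.

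**Figure D2:**
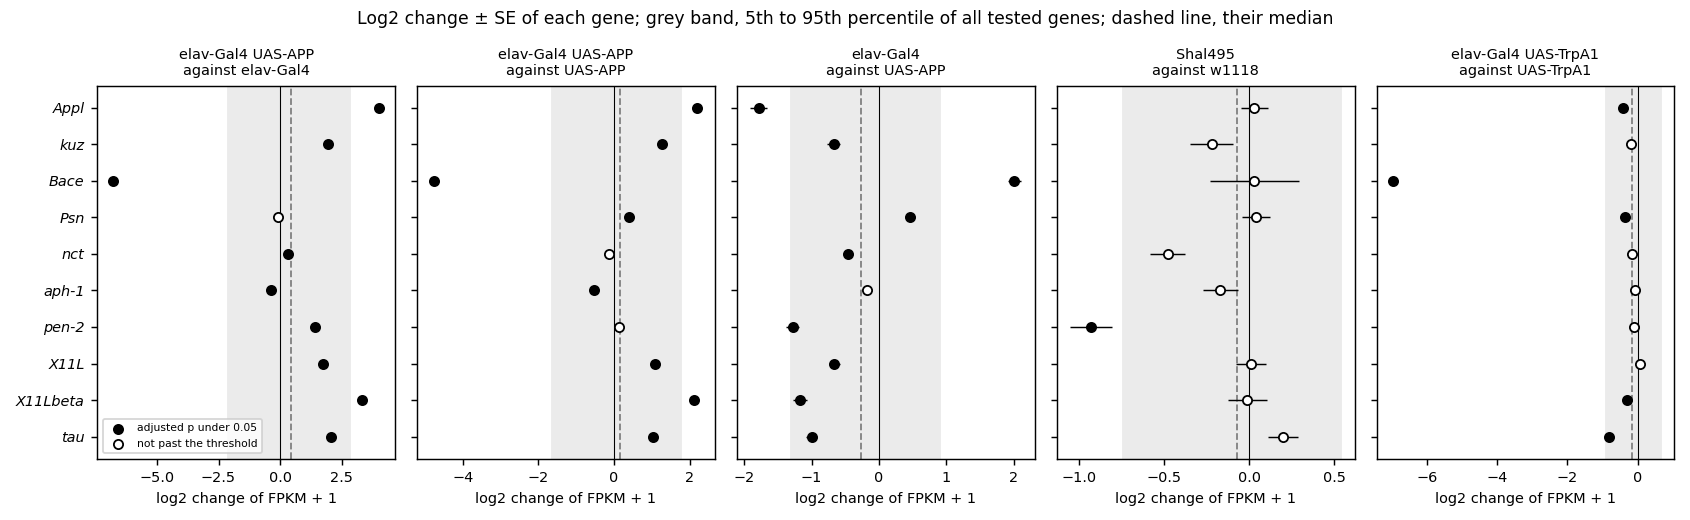
Log2 change of FPKM + 1 with its standard error for the 10 genes in each comparison, filled where the adjusted p was under 0.05, with a grey band from the 5th to the 95th percentile of all tested genes and a dashed line at their median. Bace lies outside the band in all 3 comparisons of a driver-and-transgene group, at -6.76, -4.75 and -6.96; nct against elav-Gal4 is plotted at 0.32 and is -0.24 under median centring.

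Appl (chromosome X, 530501 to 579044, BDGP6) had 168 and 168 FPKM in the elav-Gal4 UAS-APP libraries, 9.50 and 9.98 FPKM in the elav-Gal4 libraries, and 41.8 and 30.9 FPKM in the UAS-APP libraries. No library of one group reached the level of another. The log2 change was 3.98 ± 0.126 (SE) against elav-Gal4, or 3.55 less the median of all genes (adjusted p = 1.86e-07). By size of rise Appl ranked 24 of 9866 genes. Against UAS-APP it was 2.19 ± 0.126, or 2.02 less the median (adjusted p = 5.39e-06). Between the control lines Appl was lower in elav-Gal4 than in UAS-APP, by a log2 change of -1.78 ± 0.126 or -1.51 less the median (adjusted p = 4.1e-05). In bulk RNA, fewer cells of a type and less RNA per cell cannot be told apart. The elav gene itself, a neuronal RNA-binding protein gene, had 20.3 and 20.6 FPKM in elav-Gal4 UAS-APP, 2.22 and 2.41 FPKM in elav-Gal4, and 10.1 and 6.63 FPKM in UAS-APP. All 14 neuron markers rose with the driver and transgene together relative to either control line. Their median log2 change was 3.46 against elav-Gal4 and 1.92 against UAS-APP. Of these, jeb had 0.61 and 0.41 FPKM in elav-Gal4 and passed the FPKM filter only through the other groups. Its direction against elav-Gal4 was therefore fixed in advance. The part of the neuron markers in the change of Appl was not tested. Photoreceptor markers moved with them: 14 of 14 were higher against elav-Gal4 (median 3.35), and 10 were higher and 2 lower against UAS-APP (median 0.53), with 8 and 3 under median centring and 13 and 0 under quantile normalization. Their part in the changes of Appl, the adaptors and tau was not tested either. The neuronal synaptobrevin gene nSyb, which acts in vesicle release, had 395 and 393 FPKM in elav-Gal4 UAS-APP, 18.5 and 19.4 FPKM in elav-Gal4, and 114 and 88.3 FPKM in UAS-APP. The level of Appl over that of nSyb was 0.426 ± 0.000758 in elav-Gal4 UAS-APP, 0.514 ± 0.00105 in elav-Gal4 and 0.358 ± 0.0106 in UAS-APP (SD, n = 2 each), so this ratio was lower than in elav-Gal4 and higher than in UAS-APP. 

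The precursor gene did not pass the test between Shal495 and w1118, with 113 and 109 FPKM in Shal495 and 109 and 109 FPKM in w1118 (log2 change 0.03 ± 0.0783, adjusted p = 0.878). The libraries of these groups overlapped. In elav-Gal4 UAS-TrpA1 Appl was lower, at 30.8 and 29.3 FPKM, against 40.8 and 40.6 FPKM in UAS-TrpA1. That log2 change was -0.43 ± 0.0456, or -0.27 less the median (adjusted p = 0.000351). Appl over nSyb was 0.259 ± 0.000463 in elav-Gal4 UAS-TrpA1 and 0.36 ± 0.0052 in UAS-TrpA1, and nSyb itself did not pass the test there (119 and 113 FPKM in elav-Gal4 UAS-TrpA1, 112 and 114 FPKM in UAS-TrpA1). The summed neuron markers stood at 367 to 373 FPKM in elav-Gal4 UAS-TrpA1 and 438 to 441 FPKM in UAS-TrpA1, and of the 14, 0 were higher and 8 lower by limma, beside 43.9% of all genes lower. Under median centring 3 of the 14 were higher and 4 lower, and under quantile normalization 2 were higher and 5 lower.

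The α-secretase gene kuz (2L, 13550139 to 13639411), an ADAM metalloprotease that also sheds Notch and its ligand, changed in the direction of Appl in the APP table, but by less. Its level was 11.9 and 11.3 FPKM in elav-Gal4 UAS-APP, 2.24 and 2.34 FPKM in elav-Gal4, and 4.57 and 3.92 FPKM in UAS-APP. The 3 groups did not overlap. Its log2 change was 1.94 ± 0.098 against elav-Gal4 (1.51 less the median) and 1.27 ± 0.098 against UAS-APP (1.10 less the median), with adjusted p = 1.28e-06 and 1.97e-05. In elav-Gal4 it was lower than in UAS-APP, by -0.67 ± 0.098 or -0.40 less the median (adjusted p = 0.000901). Neither other table gave a call for kuz. It had 4.68 and 5.08 FPKM in Shal495 and 5.75 and 5.98 FPKM in w1118 (log2 change -0.22 ± 0.126, adjusted p = 0.407). In elav-Gal4 UAS-TrpA1 it had 2.5 and 2.67 FPKM, against 3.08 and 3.13 FPKM in UAS-TrpA1 (log2 change -0.19 ± 0.0837, adjusted p = 0.0864; voom on recovered fragments gave -0.26 with adjusted p = 0.011). The authors' deposited table of GO terms for APP names kuz under 1 term, integral component of membrane (p-value 1.64e-05 there), and gives no direction.

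Bace (2L, 8494893 to 8496307), which encodes an aspartic protease of the pepsin family with β-secretase activity, spanned the widest range of the 10 genes. It had 24.2 and 25.1 FPKM in elav-Gal4 UAS-APP, 2740 and 2810 FPKM in elav-Gal4, and 768 and 618 FPKM in UAS-APP. Its mean in elav-Gal4 UAS-APP was 113-fold lower than in elav-Gal4 and 28.1-fold lower than in UAS-APP, and no libraries overlapped between groups. The log2 change was -6.76 ± 0.102 against elav-Gal4 (-7.19 less the median, adjusted p = 9.84e-09) and -4.75 ± 0.102 against UAS-APP (-4.92 less the median, adjusted p = 9.21e-08). In the first of these it ranked 15 from the lowest of 9866 genes. Between the control lines Bace was higher in elav-Gal4, with a log2 change of 2.01 ± 0.102, or 2.28 less the median (adjusted p = 1.11e-05). In elav-Gal4 Bace ranked 27 from the highest of all genes by FPKM, while in elav-Gal4 UAS-APP it ranked 2905.

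In the TrpA1 table Bace was again far lower in the driver-and-transgene group. It had 2.57 and 2.02 FPKM in elav-Gal4 UAS-TrpA1, which rest on 70 and 55 fragments, against 397 and 417 FPKM in UAS-TrpA1, which rest on 9631 and 11760 fragments. The ratio of the means was 177-fold and the log2 change -6.96 ± 0.0823, or -6.80 less the median (adjusted p = 5.83e-08), rank 6 from the lowest of 8980 genes. Shal495 and w1118 libraries overlapped for Bace, at 65.4 and 39.6 FPKM in Shal495 and 44.7 and 55.4 FPKM in w1118. That log2 change was 0.03 ± 0.26 (adjusted p = 0.958), the widest error among the 10 genes. Female markers moved in these comparisons too. Of the 3 tested of a list of 6 (the yolk protein genes Yp1, Yp2 and Yp3), 3 were lower against elav-Gal4 and 1 (Yp3) against UAS-APP in elav-Gal4 UAS-APP, 3 were lower in elav-Gal4 UAS-TrpA1, and 3 were higher in Shal495 and in elav-Gal4 against UAS-APP. Yp1 passed the FPKM filter in each table only through the group where it was high, so its direction in these counts was fixed in advance. The female markers summed to 9.62 to 9.97 FPKM in elav-Gal4 UAS-APP, 404 to 422 FPKM in elav-Gal4 and 24.9 to 31.7 FPKM in UAS-APP. The sums were 576 to 753 FPKM in Shal495 and 28.5 to 36.7 FPKM in w1118. In the TrpA1 table they were 12.8 to 15.1 FPKM in elav-Gal4 UAS-TrpA1 and 864 to 878 FPKM in UAS-TrpA1. The defining yolk protein genes were above 0 in every library, and the part of the female markers in the changes of Bace was not tested.

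Markers of the gut moved with Bace in the APP table. All 16 of the list were lower in elav-Gal4 UAS-APP than in elav-Gal4 (median log2 change -5.70, range -7.74 to -2.08), and 15 of 16 than in UAS-APP (median -4.61). In elav-Gal4, 15 of 16 were higher than in UAS-APP (median 1.43). Their part in the change of Bace was not tested. In the TrpA1 table the summed markers were at 6440 to 6690 FPKM in elav-Gal4 UAS-TrpA1 and 6710 to 6860 FPKM in UAS-TrpA1, so the sum differed far less than Bace did. Of 15 gut markers tested there, 10 were lower, 4 higher and 1 not called, beside 43.9% of all genes lower and 16.6% higher. Under median centring 9 were lower and 5 higher, and under quantile normalization 9 were lower and 4 higher. The median as deposited was -0.56, with a range of -7.20 to 1.48. The trypsin gene thetaTry was listed at 0 in both elav-Gal4 UAS-TrpA1 libraries and had 63.4 and 68.3 FPKM in UAS-TrpA1. Jon25Bi, a serine protease gene, had 0 and 0.3 FPKM in elav-Gal4 UAS-TrpA1 and 162 and 171 FPKM in UAS-TrpA1. The amylase gene Amy-p went the other way, with 1560 and 1590 FPKM in elav-Gal4 UAS-TrpA1 and 711 and 725 FPKM in UAS-TrpA1. Digestive enzyme genes of these families have near copies, so values of single ones are uncertain. These 3 were picked from the list after their values were seen. Of them, thetaTry and Jon25Bi passed the FPKM filter only through the UAS-TrpA1 libraries, so their direction in the counts above was fixed in advance.

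**Figure D3:**
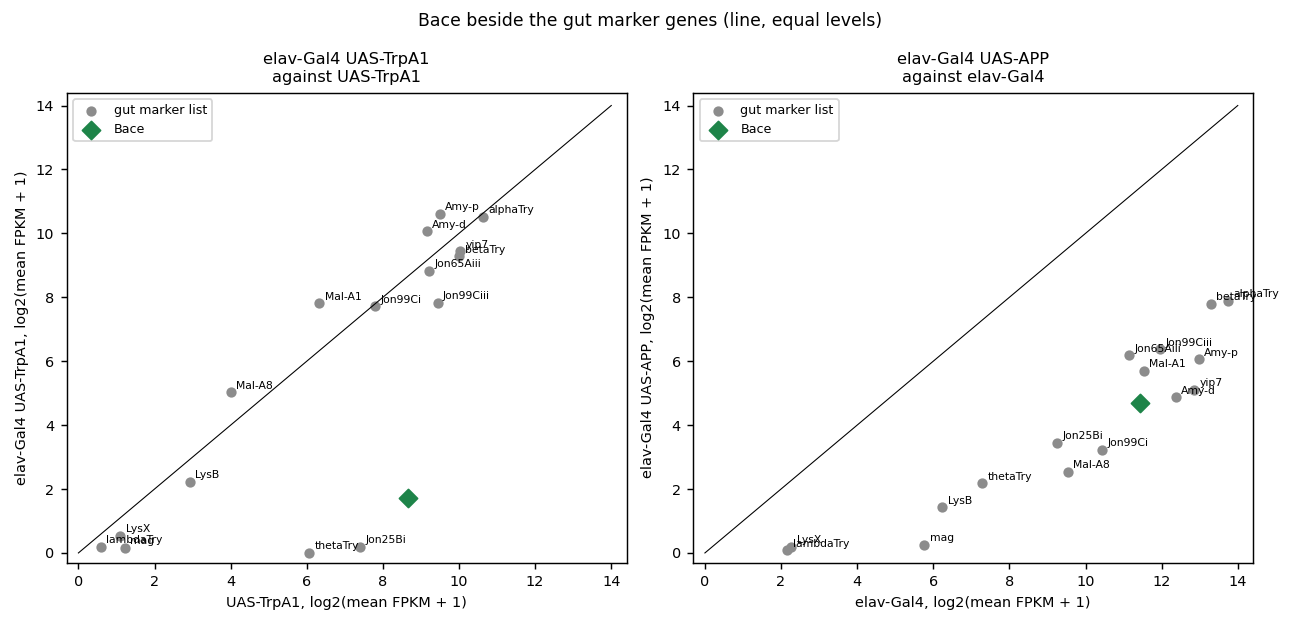
Mean level of Bace (diamond) and of the gut markers (points) as log2(mean FPKM + 1), elav-Gal4 UAS-TrpA1 over UAS-TrpA1 on the left and elav-Gal4 UAS-APP over elav-Gal4 on the right, with a line where levels are equal. On the left Bace, thetaTry and Jon25Bi lie farthest below the line, and on the right all 16 markers and Bace lie below it.

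Bace lies within the span of Dh31, the gene of a diuretic hormone, on the same strand, with 0 shared exon bases. Dh31 had 34.2 and 31.8 FPKM in elav-Gal4 UAS-TrpA1 and 32.7 and 34.1 FPKM in UAS-TrpA1 (log2 change -0.02, adjusted p = 0.785). In the APP table it moved opposite to Bace, with 55 and 55 FPKM in elav-Gal4 UAS-APP and 4.05 and 5.34 FPKM in elav-Gal4 (log2 change 3.31). Of the 3 nearest coding genes on each side of Bace, Agpat2 was higher (0.69) and CG13096 lower (-0.29) in elav-Gal4 UAS-TrpA1, and 3 were not called. The remaining gene, dachs, was under the FPKM filter and not tested. It had 0.085 and 0.0679 FPKM in elav-Gal4 UAS-TrpA1 and 0.696 and 0.822 FPKM in UAS-TrpA1, which did not overlap. The genes most like Bace over the 14 libraries were CG18404, Pebp1 and CG7542, of 8709 genes compared on log2(FPKM + 1) centred within each table. Their root mean square distances from Bace were 0.377, 0.431 and 0.478, where the spread of Bace itself was 2.63. CG18404 averaged 0.0428 FPKM in elav-Gal4 UAS-TrpA1 and 110 FPKM in UAS-TrpA1. In the APP table it averaged 5.40 FPKM in elav-Gal4 UAS-APP, 387 FPKM in elav-Gal4 and 167 FPKM in UAS-APP. CG18404 was picked for its likeness to Bace over these same libraries, so its levels repeat that choice. In the TrpA1 table CG18404, Pebp1 and CG7542 passed the FPKM filter only through the UAS-TrpA1 libraries.

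Of 11 other pepsin-like protease genes, only cathD and pcl passed the FPKM filter, in each table. The cathepsin D gene cathD, a lysosomal protease, had 195 and 200 FPKM in elav-Gal4 UAS-APP, 265 and 269 FPKM in elav-Gal4, and 320 and 319 FPKM in UAS-APP. Its log2 change against elav-Gal4 was -0.43 as deposited (adjusted p = 0.000188) but 0.20 under quantile normalization (adjusted p = 0.0218), so its direction rests on the scaling. In elav-Gal4 UAS-TrpA1 it was higher, at 462 and 472 FPKM, against 385 and 392 FPKM in UAS-TrpA1 (log2 change 0.26). The pepsinogen-like gene pcl had 0.245 and 0.162 FPKM in elav-Gal4 UAS-APP, 10.3 and 9.75 FPKM in elav-Gal4, and 4.45 and 2.64 FPKM in UAS-APP. It was listed at 0 in both elav-Gal4 UAS-TrpA1 libraries and had 2.94 and 4.37 FPKM in UAS-TrpA1. It passed the filter there only through the UAS-TrpA1 libraries, so no test is given. The authors' deposited tables for TrpA1 name Bace among lowered genes in 9 GO terms, endopeptidase activity among them (p-value 9.22e-10 there), 4 of which have a false discovery rate of 0.13 to 0.621 there (catalytic activity acting on a protein, lysosome, lytic vacuole and vacuole), and in the KEGG pathway Lysosome (p-value 0.0101 and false discovery rate 0.211 there). No term in their tables for Shal495 or in their KEGG table for APP names any of the 10 genes.

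The 4 γ-secretase genes did not move as 1 unit. Psn (3L, 20432468 to 20435156) encodes presenilin, the catalytic subunit, and had the highest mean of the 4 in every group, though in UAS-APP its libraries overlapped with those of aph-1. It had 18.5 and 21.0 FPKM in elav-Gal4 UAS-APP, 21.1 and 20.6 FPKM in elav-Gal4, and 14.6 and 15.1 FPKM in UAS-APP. The elav-Gal4 UAS-APP and elav-Gal4 libraries overlapped, and UAS-APP was lowest. Against elav-Gal4 its log2 change was -0.08 ± 0.0779 (-0.51 less the median, adjusted p = 0.379), which became -0.64 and -0.47, past the threshold, under median centring and quantile normalization. Against UAS-APP it was 0.39 ± 0.0779 (0.22 less the median, adjusted p = 0.00281), a call lost under both of those scalings (0.13 and 0.17). Between the control lines Psn was higher in elav-Gal4, by 0.46 ± 0.0779 or 0.73 less the median (adjusted p = 0.00171). In Shal495 Psn had 28.6 and 28.5 FPKM, against 27.3 and 28.4 FPKM in w1118 (log2 change 0.04 ± 0.0827, adjusted p = 0.848). It was lower in elav-Gal4 UAS-TrpA1, with 22.6 and 19.3 FPKM, than in UAS-TrpA1, with 27.2 and 27.6 FPKM. That log2 change was -0.37 ± 0.076, or -0.21 less the median (adjusted p = 0.00608; -0.18 and -0.20 and no longer called under median centring and quantile normalization). Psn shares 47 exon bases with mRpL15 on the other strand, a gene that passed no test here.

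The gene of nicastrin, nct (3R, 24851601 to 24854869), encodes the large subunit that receives substrates. It had 12.6 and 12.2 FPKM in elav-Gal4 UAS-APP, 9.51 and 10.0 FPKM in elav-Gal4, and 13.3 and 14.3 FPKM in UAS-APP. Its log2 change against elav-Gal4 was 0.32 ± 0.0752 (adjusted p = 0.00513), but -0.11 less the median, -0.24 under median centring and -0.23 under quantile normalization, so its direction rests on the scaling. Against UAS-APP the value was -0.14 ± 0.0752 (adjusted p = 0.128), or -0.39 and -0.40 and called under those scalings. In elav-Gal4 nct was lower than in UAS-APP, by -0.46 ± 0.0752 or -0.19 less the median (adjusted p = 0.00153, lost under both scalings). In Shal495 it had 11.5 and 10.5 FPKM, against 15.3 and 16.2 FPKM in w1118, groups that did not overlap, although the log2 change of -0.48 ± 0.105 missed the threshold (adjusted p = 0.103). The TrpA1 table gave no call either. There, elav-Gal4 UAS-TrpA1 had 8.77 and 7.99 FPKM, against 9.62 and 9.51 FPKM in UAS-TrpA1 (log2 change -0.17 ± 0.0689, adjusted p = 0.0678). The labels give no strand marking, and nct shares 374 exon bases with HDAC11 on the other strand. HDAC11 had 11.8 and 11.4 FPKM in elav-Gal4 UAS-APP and 2.61 and 2.95 FPKM in elav-Gal4, so reads of the genes cannot be told apart over that stretch.

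The multipass subunit gene aph-1 (2L, 2766233 to 2767281) was lower in elav-Gal4 UAS-APP relative to both control lines, alone among the 4 as deposited but together with nct under median centring and quantile normalization. It had 9.56 and 9.55 FPKM in elav-Gal4 UAS-APP, 12.8 and 12.4 FPKM in elav-Gal4, and 13.8 and 15.0 FPKM in UAS-APP. The log2 change was -0.36 ± 0.0753 against elav-Gal4 (-0.79 less the median) and -0.54 ± 0.0753 against UAS-APP (-0.71 less the median), with adjusted p = 0.00267 and 0.000394. The control lines did not differ past the threshold (-0.18 ± 0.0753, adjusted p = 0.0693). In the other tables aph-1 had 12.1 and 11.8 FPKM in Shal495, 14.3 and 13 FPKM in w1118, 14 and 16.5 FPKM in elav-Gal4 UAS-TrpA1, and 15.6 and 16.6 FPKM in UAS-TrpA1. Neither pair passed (adjusted p = 0.438 and 0.434).

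The gene of the small subunit, pen-2 (2R, 18277439 to 18278762), whose product is needed for presenilin to become active, varied most of the 4. It had 8.24 and 7.42 FPKM in elav-Gal4 UAS-APP, 2.42 and 2.2 FPKM in elav-Gal4, and 6.88 and 7.16 FPKM in UAS-APP. The elav-Gal4 libraries stood apart as low. The log2 change was 1.42 ± 0.0939 against elav-Gal4 (0.99 less the median, adjusted p = 5.03e-06) and 0.14 ± 0.0939 against UAS-APP (-0.03 less the median, adjusted p = 0.216). In elav-Gal4 it was lower than in UAS-APP, by -1.28 ± 0.0939 or -1.01 less the median (adjusted p = 4.84e-05). In Shal495 pen-2 had 3.5 and 3.56 FPKM, resting on 75 and 77 fragments, against 7.80 and 7.50 FPKM in w1118, resting on 161 and 162 fragments. That log2 change was -0.93 ± 0.122 (adjusted p = 0.0396). The direction held under the alternatives run, but without any 1 of the 4 libraries the adjusted p was 0.0961 to 0.206, and with the replicate block, no filter or voom it was 0.0803 to 0.146. In elav-Gal4 UAS-TrpA1 pen-2 had 6.25 and 4.92 FPKM, against 5.53 and 6.51 FPKM in UAS-TrpA1, and the groups overlapped (adjusted p = 0.524). Of its 1181 exon bases pen-2 shares 565 with sbb on the other strand, and reads there cannot be told apart without strand. The transcription factor gene sbb had 16.5 and 16.9 FPKM in Shal495 and 20.4 and 20.6 FPKM in w1118 (log2 change -0.28, adjusted p = 0.186). In the APP table it had 21.7 and 21.7 FPKM in elav-Gal4 UAS-APP, 6.51 and 6.95 FPKM in elav-Gal4, and 8.94 and 7.64 FPKM in UAS-APP. The part of sbb reads in the values of pen-2 was not tested.

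The balance among the 4 subunit genes is given by the level of Psn over that of another subunit, in FPKM over FPKM. Psn over pen-2 was 2.54 ± 0.409 in elav-Gal4 UAS-APP, 9.06 ± 0.476 in elav-Gal4 and 2.12 ± 0.0113 in UAS-APP (SD, n = 2 each, here and below). It was 8.09 ± 0.124 in Shal495 and 3.65 ± 0.206 in w1118, and 3.78 ± 0.216 in elav-Gal4 UAS-TrpA1 and 4.58 ± 0.489 in UAS-TrpA1. The high ratios thus belong to elav-Gal4 and Shal495. Psn over aph-1 was 2.07 ± 0.182 in elav-Gal4 UAS-APP, 1.66 ± 0.0131 in elav-Gal4 and 1.03 ± 0.0392 in UAS-APP. It was 2.39 ± 0.0392 in Shal495, 2.05 ± 0.197 in w1118, 1.40 ± 0.316 in elav-Gal4 UAS-TrpA1 and 1.70 ± 0.0631 in UAS-TrpA1. Psn over nct was 2.60 ± 0.166 in Shal495 and 1.77 ± 0.0267 in w1118. It was 1.59 ± 0.172 in elav-Gal4 UAS-APP, 2.14 ± 0.111 in elav-Gal4 and 1.08 ± 0.0286 in UAS-APP. In the TrpA1 table it was 2.50 ± 0.114 in elav-Gal4 UAS-TrpA1 and 2.86 ± 0.0501 in UAS-TrpA1. No test was made of these ratios. The libraries labelled elav-Gal4 and Shal495 also had high yolk protein RNA, as did UAS-TrpA1, where the ratio over pen-2 was not as high.

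**Figure D4:**
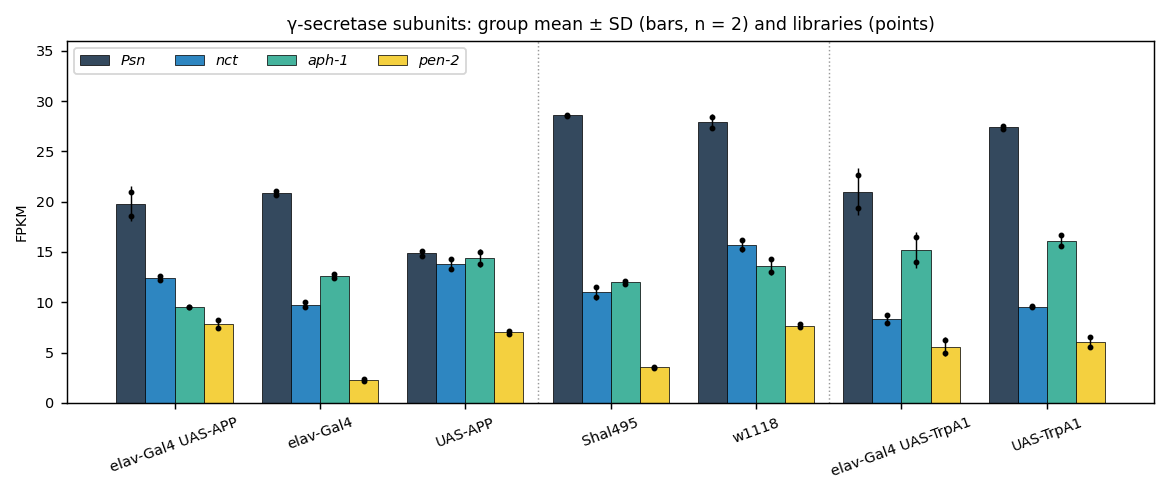
Mean FPKM of Psn, nct, aph-1 and pen-2 in each group (bars, with the SD of 2 libraries and each library as a point; dotted lines separate the tables). pen-2 averaged 2.31 FPKM in elav-Gal4 and 3.53 FPKM in Shal495, and 5.59 FPKM or more in the other groups.

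X11L (X, 17599608 to 17606879) and X11Lbeta (X, 10627737 to 10710947) encode adaptors with PDZ and phosphotyrosine-binding domains that bind the tail of Appl, and both were higher in elav-Gal4 UAS-APP. X11L had 23.7 and 24.0 FPKM in elav-Gal4 UAS-APP, 6.31 and 6.51 FPKM in elav-Gal4, and 11.4 and 10.0 FPKM in UAS-APP. X11Lbeta had 19.9 and 19.7 FPKM in elav-Gal4 UAS-APP, 1.10 and 1.12 FPKM in elav-Gal4, and 4.19 and 3.35 FPKM in UAS-APP. No groups overlapped for either gene. The log2 change of X11L was 1.75 ± 0.0828 against elav-Gal4 and 1.09 ± 0.0828 against UAS-APP (1.32 and 0.92 less the median, adjusted p = 9.45e-07 and 1.84e-05). That of X11Lbeta was 3.30 ± 0.107 and 2.13 ± 0.107 (2.87 and 1.96 less the median, adjusted p = 1.97e-07 and 3.2e-06). Both were lower in elav-Gal4 than in UAS-APP, X11L by -0.66 ± 0.0828 and X11Lbeta by -1.17 ± 0.107 (-0.39 and -0.90 less the median, adjusted p = 0.000449 and 0.000115). The level of X11L over that of X11Lbeta was 1.21 ± 0.0209 in elav-Gal4 UAS-APP, 5.77 ± 0.0815 in elav-Gal4 and 2.86 ± 0.183 in UAS-APP. It was 1.16 ± 0.0164 in Shal495 and 1.15 ± 0.165 in w1118, and 3.74 ± 0.297 in elav-Gal4 UAS-TrpA1 and 2.63 ± 0.263 in UAS-TrpA1. The adaptors were thus close to equal in elav-Gal4 UAS-APP, Shal495 and w1118, and unequal elsewhere. Summed neuron markers were 847 FPKM or more in those groups and 441 FPKM or less elsewhere. The tables were scaled separately, and a link between this ratio and the neuron markers was not tested.

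Neither adaptor passed the test between Shal495 and w1118, and their libraries overlapped. X11L had 22.2 and 23.4 FPKM in Shal495 and 22.9 and 22.3 FPKM in w1118 (log2 change 0.01 ± 0.0875, adjusted p = 0.945). X11Lbeta had 19.3 and 19.9 FPKM in Shal495 and 18.1 and 21.6 FPKM in w1118 (log2 change -0.01 ± 0.117, adjusted p = 0.98). The TrpA1 table gave the adaptors unlike results. X11L had 8.81 and 9.0 FPKM in elav-Gal4 UAS-TrpA1 and 8.17 and 8.61 FPKM in UAS-TrpA1 (log2 change 0.08 ± 0.0639, adjusted p = 0.336, but 0.26 with adjusted p = 0.0138 under median centring and under quantile normalization). X11Lbeta had 2.5 and 2.28 FPKM in elav-Gal4 UAS-TrpA1 and 3.34 and 3.06 FPKM in UAS-TrpA1. It was called lower (-0.31 ± 0.0902, or -0.15 less the median, adjusted p = 0.024). That call was lost under median centring (-0.12), under quantile normalization (-0.10), with no filter (adjusted p = 0.0522), and without 3 of the 4 libraries in turn, namely elav-Gal4 UAS-TrpA1 replicate 2 (0.101), UAS-TrpA1 replicate 1 (0.117) and UAS-TrpA1 replicate 2 (0.0507).

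The tau gene (3R, 27639886 to 27656996) had 44.4 and 42.3 FPKM in elav-Gal4 UAS-APP, 9.63 and 9.88 FPKM in elav-Gal4, and 22.1 and 19.0 FPKM in UAS-APP. The groups did not overlap. Its log2 change was 2.04 ± 0.0841 against elav-Gal4 (1.62 less the median, adjusted p = 5.04e-07) and 1.04 ± 0.0841 against UAS-APP (0.88 less the median, adjusted p = 2.4e-05). In elav-Gal4 it was lower than in UAS-APP, by -1.0 ± 0.0841 or -0.73 less the median (adjusted p = 8.26e-05). Its level over that of nSyb ran opposite to its own level, at 0.11 ± 0.00339 in elav-Gal4 UAS-APP, 0.515 ± 0.00754 in elav-Gal4 and 0.204 ± 0.0156 in UAS-APP. In Shal495 tau had 37.4 and 40.6 FPKM, against 33.1 and 34.5 FPKM in w1118. These groups did not overlap, and the log2 change of 0.20 ± 0.0886 did not pass (adjusted p = 0.31). In elav-Gal4 UAS-TrpA1 tau was lower, with 15.0 and 15.1 FPKM, against 27.7 and 27.2 FPKM in UAS-TrpA1. That log2 change, -0.82 ± 0.0476 or -0.66 less the median (adjusted p = 2.29e-05), was the second in size of the 10 genes there, after Bace. Tau over nSyb was 0.13 ± 0.00512 in elav-Gal4 UAS-TrpA1 and 0.243 ± 0.00543 in UAS-TrpA1. Muscle markers were lower in the same comparison for 9 of 9 genes (median -0.80), beside 43.9% of all genes. Under median centring and under quantile normalization 7 of the 9 were lower. Glia markers were lower for 7 of 8 genes (median -0.29), with 4 and 5 lower under those scalings. The part of either list in the change of tau was not tested.

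**Figure D5:**
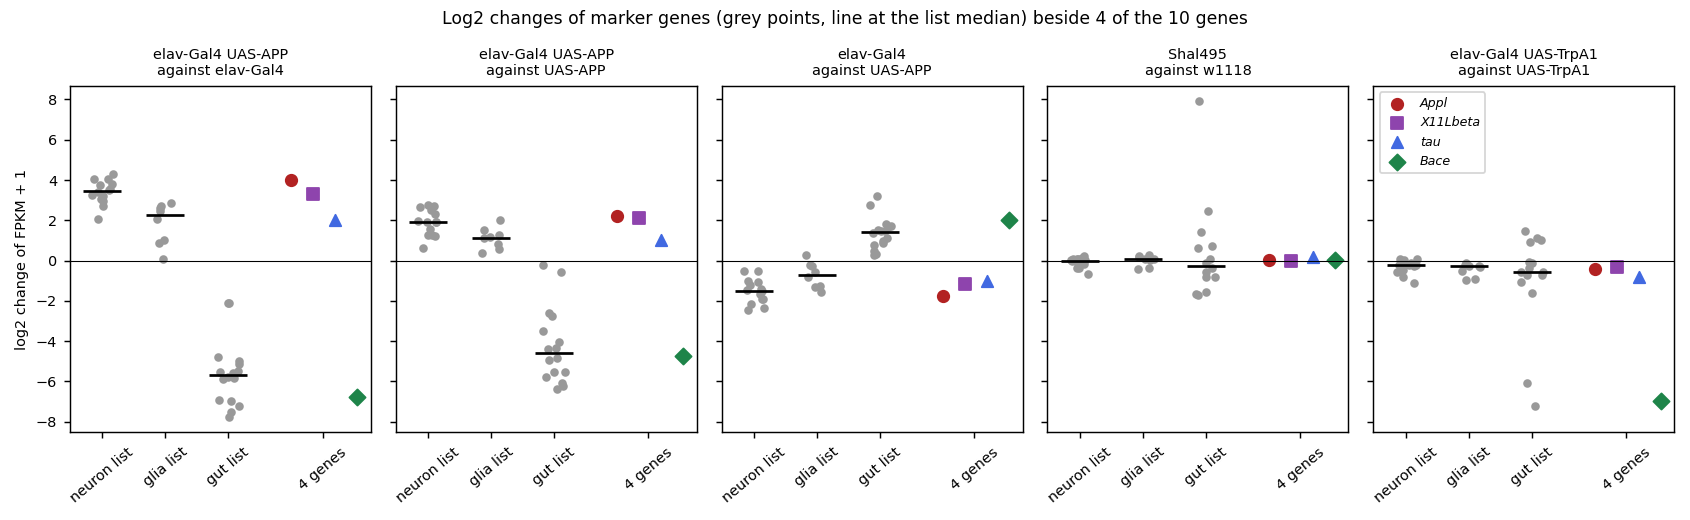
Log2 change of FPKM + 1 of each gene of the neuron, glia and gut marker lists (grey points, line at the list's median) beside Appl, X11Lbeta, tau and Bace in each comparison. Appl at 3.98 lies near the neuron median of 3.46 in elav-Gal4 UAS-APP against elav-Gal4, and Bace at -6.96 lies near the low end of the gut markers, whose median is -0.56, in elav-Gal4 UAS-TrpA1 against UAS-TrpA1.

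Levels per length set the 10 genes in a different order from group to group, and the tables were scaled separately. Appl was the highest of the 10 in elav-Gal4 UAS-APP (168 FPKM), Shal495 (111 FPKM), w1118 (109 FPKM) and elav-Gal4 UAS-TrpA1 (30.0 FPKM). Bace was the highest in elav-Gal4 (2770 FPKM), UAS-APP (693 FPKM) and UAS-TrpA1 (407 FPKM). The level of Appl over that of Bace was 6.82 ± 0.199 in elav-Gal4 UAS-APP, 0.00351 ± 5.66e-05 in elav-Gal4 and 0.0522 ± 0.00306 in UAS-APP. It was 13.2 ± 1.80 in elav-Gal4 UAS-TrpA1 and 0.1 ± 0.00397 in UAS-TrpA1, and overlapped between Shal495 (2.25 ± 0.724) and w1118 (2.21 ± 0.341). Appl over kuz was 14.5 ± 0.558 in elav-Gal4 UAS-APP, 4.26 ± 0.0185 in elav-Gal4 and 8.51 ± 0.878 in UAS-APP.

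Patterns over the 14 libraries were compared by the root mean square difference of centred log2(FPKM + 1), among 8709 genes. These libraries share their depth range and their marker differences. The genes nearest to Appl were Rab3, Nckx30C and unc-104, at distances of 0.0676, 0.0848 and 0.0855. Of the other 9, X11Lbeta was nearest to Appl, at 0.212 and rank 115 of the genes compared, and Bace was farthest, at 3.40 and rank 8706. The genes nearest to X11Lbeta were Nlg2, Teh4 and Tmtc2 (0.0622 to 0.0772). The nearest to kuz were Atx2, CG13300 and dlg1 (0.042 to 0.0572), and kuz and X11L lay at 0.115 from each other. For X11L the nearest were Mctp, Lrrk and spri (0.0569 to 0.066), and for tau P5CDh1, Gabat and CG32278 (0.068 to 0.0933). Among the γ-secretase genes, Psn was nearest to Letm1, MRP and cdi (0.0727 to 0.0846), nct to RNaseX25, GILT1 and CG6583 (0.0708 to 0.0822), and aph-1 to Clc, Prosbeta5 and gammaCOP (0.0639 to 0.0675). The nearest genes to pen-2, Ids, Rh2 and CG6923, were farther off (0.159 to 0.166). The smallest distance between any of the 4 subunits was 0.219, between nct and aph-1. These distances are not scaled to how far a gene itself varies. That spread was 1.07 for Appl and 0.493 for pen-2, but 0.175 for Psn, 0.19 for nct and 0.167 for aph-1. The distance between nct and aph-1 was thus larger than the spread of either gene.

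Other genes of the pathway were counted over a list of 38: other sheddases, signal peptide peptidases, peptide-degrading proteases, partners of Appl, γ-secretase substrates, tau kinases and phosphatases, and microtubule transport. Against elav-Gal4, 33 were higher and 5 lower in elav-Gal4 UAS-APP (median 1.04), beside 56.5% and 27.5% of all genes, with 27 and 8 under median centring and 30 and 5 under quantile normalization. Against UAS-APP, 30 were higher and 5 lower (median 0.78), beside 46.1% and 30.7% of all genes, with 26 and 6 and with 30 and 6 under those scalings. In elav-Gal4, 1 was higher and 25 lower than in UAS-APP (median -0.39), beside 16.2% and 50.2% of all genes. Under those scalings only 12 and 13 were lower. The γ-secretase substrate gene Dl was under 1 FPKM in elav-Gal4, and Ser and Nep5 were under 1 FPKM in elav-Gal4 UAS-APP. They passed the FPKM filter only through the other groups of that table. The direction of Dl relative to elav-Gal4, and of Ser and Nep5 in elav-Gal4 UAS-APP, was thus fixed in advance. Of 37 tested between Shal495 and w1118, 1 was called, beside 2.37% of all genes. Of 35 tested between elav-Gal4 UAS-TrpA1 and UAS-TrpA1, 1 was higher and 18 lower (median -0.21), beside 16.6% and 43.9% of all genes, with 4 higher and 8 or 9 lower under those scalings. All 8 kinase and phosphatase genes of tau were higher against elav-Gal4 and 6 of 8 against UAS-APP, beside 56.5% and 46.1% of all genes. Under median centring 6 were higher and 2 lower against elav-Gal4, and 5 were higher and 1 lower against UAS-APP. Under quantile normalization 7 were higher and 0 lower against elav-Gal4 by limma, and 7 were higher and 1 lower against UAS-APP.

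The largest rises in that list included futsch, a microtubule-binding protein gene, with 42.6 and 42.1 FPKM in elav-Gal4 UAS-APP, 2.5 and 2.56 FPKM in elav-Gal4, and 9.90 and 6.46 FPKM in UAS-APP (log2 change 3.62 and 2.27 against these lines). Cdk5alpha, the activator of the kinase Cdk5, had 86.7 and 86.1 FPKM in elav-Gal4 UAS-APP and 8.48 and 7.33 FPKM in elav-Gal4 (3.30). The neuronal cadherin gene CadN changed by 2.95 and 1.90 against elav-Gal4 and UAS-APP, and the kinase gene Abl by 1.69 against UAS-APP. CadN is also in the neuron marker list, and the part of the rise in neuron markers in these values was not tested. The largest falls were of the neprilysin-type peptidase genes Nep6 and Nep5 and the signal peptide peptidase gene Spp. Nep6 had 13.8 and 12.8 FPKM in elav-Gal4 UAS-APP, 41.2 and 40.9 FPKM in elav-Gal4, and 33.1 and 42.9 FPKM in UAS-APP (-1.56 and -1.44). Nep5 changed by -1.25 and -1.70, and Spp by -1.16 against each line. In elav-Gal4 UAS-APP, Nep5 had 0.84 and 0.63 FPKM. It passed the FPKM filter only through the control lines, so its direction was fixed in advance. Between the control lines, Cdk5alpha (-2.08) and the sheddase genes Tace (-1.62) and Kul (-1.39) fell most in elav-Gal4, and Nep7 alone was higher as deposited (0.74).

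In elav-Gal4 UAS-TrpA1 Nep6 was the 1 gene of that list higher as deposited, at 106 and 106 FPKM, against 31.8 and 33.1 FPKM in UAS-TrpA1 (log2 change 1.68, adjusted p = 6.77e-07). Nep2 (-0.63), the cadherin gene shg (-0.60) and Nep3 (-0.53) had the largest falls there. In Shal495 shg alone was called, with 24.2 and 25.1 FPKM, against 13.5 and 14.4 FPKM in w1118 (log2 change 0.78, adjusted p = 0.0353).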

How the data were processed

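RNA of 14 libraries of adult flies, 2 per genotype, was read from 3 expression tables in which the authors deposited FPKM per gene. Per the submitters' processing notes BDGP6, Bowtie2 2.2.3, HISAT2 2.1.0 and TopHat2 were used, with no roles named; the tool for FPKM was not given in the sources used here. GO and KEGG tables, deposited by the authors, hold a p-value for each term, and only terms that name any of the 10 genes were taken.

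Genes with FPKM of 1 or more in 2 libraries of a table were tested with limma 3.58.1 (R 4.3.3, empirical Bayes with a trend) on log2(FPKM + 1), at a Benjamini-Hochberg adjusted p under 0.05 over all genes tested. That pseudocount of 1 makes changes of weakly expressed genes smaller than their FPKM ratio. The 3 groups of the APP table shared 1 fit. SE is the moderated error of the log2 change and SD that of FPKM over 2 libraries. Fragments were recovered by finding the library total at which FPKM times exon length fell within 0.02 of a whole number, which held for 98.7% to 98.9% of genes per library. It did not hold for tau, so voom gave no value for it. For genes with 20 or more fragments in both libraries of a group together, a chi-square divided by the number of genes measured their spread relative to sampling noise. No pair of libraries had identical values. Fits were also run on data simulated with the same dispersion for every gene and group and with few genes changed. The real groups differed in spread, and most tested genes were called in the APP and TrpA1 tables. That run therefore does not measure the error rate here.

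The 10 genes and the 16 other lists were chosen with earlier results of these data known. Named beside the 10 were Shal and TrpA1, the pepsin-like genes tested, the 3 pathway genes with the largest called rise and fall per comparison, and the 3 genes nearest to each of the 10. Other genes (Yp1, nSyb, gut enzymes, neighbours) were chosen for the levels they show or for their position. Other settings tried were median centring, quantile normalization, voom on fragments, a replicate block, an FPKM minimum of 5 or none, a pseudocount of 0.1, fits of 2 groups, and each library left out. Software was Python 3.11.15 with numpy 2.4.6, pandas 2.3.3 and matplotlib 3.10.9.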

Additional observations from a re-analysis of the deposited data

How the results depend on the processing

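Of 633 results of a single one of the 10 genes under an alternative, 602 kept their call or their lack of one, 19 lost and 10 gained a call, and 2 called results changed sign. Of the 602, 24 were of genes not called as deposited or under the alternative whose value changed sign. The 2 called results are nct in elav-Gal4 UAS-APP against elav-Gal4, at -0.24 under median centring and -0.23 under quantile normalization, against 0.32 as deposited. In Shal495 against w1118, 228 genes were called, with 24 under no filter, 96 with the replicate block and 9 to 130 without 1 library (9 without Shal495 replicate 2, 33 without Shal495 replicate 1, 87 without w1118 replicate 1). The count of the 10 genes there, 1 (pen-2), became 0 with no filter, the replicate block, voom, or any library left out (0 to 0). The cause was not tested. Replicate numbers did not pair the libraries, since deviations of same-numbered libraries correlated at -0.033 to 0.018, and the block moved the number of calls by over 1.5 times only in Shal495 against w1118. Calls as higher and as lower depended on scaling. In elav-Gal4 UAS-APP against elav-Gal4 they were 5578 and 2713 as deposited, 3555 and 4516 under median centring and 4068 and 3953 under quantile normalization. Against UAS-APP they were 4546 and 3026, 3476 and 4140, and 3967 and 3653. In elav-Gal4 against UAS-APP they were 1594 and 4951, 2931 and 2370, and 2438 and 2732. For TrpA1 they were 1495 and 3944, 2586 and 2042, and 2325 and 2169. A filter at FPKM 5 left kuz and X11Lbeta untested in the TrpA1 table. With 2 libraries a group, precision rests on the spread shared across genes, and a lone library is assumed to vary like the others. Depth limits pen-2 most, at 51 to 182 fragments a library.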
